A study of Mus musculus with 18 samples.

Results

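RNA polymerase II (Pol II) and CTCF were followed at 10 heat shock genes in chromatin from mouse ventricles. The genes were taken by symbol: *Hspa1a*, *Hspa1b*, *Hspa8*, *Hsp90aa1*, *Hsp90ab1*, *Hsph1*, *Dnajb1*, *Hspb1*, *Hspb6* and *Hspb7*. Every region of the deposited ChIP-seq table that carried one of these symbols as its nearest promoter was a member. Of the 101256 regions, called rows here, 25 carried a member symbol, and they belonged to 8 of the 10 genes. No row carried the symbol *Hspa1a* or *Hspb6*. *Hspa8* had 6 rows, *Hspa1b* 5, *Hspb1* and *Hsp90ab1* 4 each, *Hsp90aa1* and *Dnajb1* 2 each, and *Hsph1* and *Hspb7* 1 each.

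The hearts came from adult mice of 3 genotypes, with 2 Pol II libraries, 2 CTCF libraries and 1 IgG library per genotype. WT hearts were the controls. The *Trdn-as* KO mice, made through embryonic stem cells and crossed back to C57BL/6, carried a polyadenylation signal in the first exon of the antisense RNA *Trdn-as*. The insertion is carried in all cells, on both copies. The *Mettl3* KO mice, labelled Mettl3lox/lox:alphaMHC-MerCreMerpos, lost the m6A methyltransferase METTL3 only in cardiomyocytes, since the alpha myosin heavy chain promoter drives the tamoxifen-dependent Cre, and they had received tamoxifen as adults. Other cells of the ventricle keep the gene. The sample labels give the controls of both lines only as WT, and the study's methods, which describe tamoxifen also for Mettl3lox/lox controls, do not say whether these WT mice were such animals. Chromatin was prepared from 2 pooled hearts, and nothing states that the 2 libraries of a group came from separate animals, so p-values measure only the spread between these libraries, which may be technical.

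Heat shock proteins are chaperones that bind unfolded proteins and help them to refold or to be degraded. Part of them, such as the HSP70 proteins HSPA1A and HSPA1B, is induced by heat and other protein stress through heat shock factor 1, whereas HSPA8 and HSP90AB1 are made constantly. Heat shock factor 1 binds heat shock elements, repeats of a short unit read as GAA on one strand and TTC on the other, in promoters where Pol II is often already engaged and paused just downstream of the start. In heart muscle, small heat shock proteins such as HSPB1, HSPB6 and HSPB7 bind cytoskeletal and sarcomeric proteins. CTCF is a zinc finger protein that binds DNA at chromatin boundaries, and served as the positive control.

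The promoter sequences of 7 of the 10 genes were present in the RefSeq table of GRCm38.p6 used here, each from 250 bases before to 50 bases after a start. *Hspa8*, *Hsp90aa1* and *Hsp90ab1* had no entry. The table of ChIP-seq values uses the newer build GRCm39, so no coordinate was carried from one build to the other. The heat shock element was searched as a pair of units in both arrangements, GAANNTTC and TTCNNGAA, on both strands. Each of these letters reads the same on the opposite strand. *Hspa1a*, *Hspa1b*, *Hspb1*, *Hspb6* and *Hsph1* held at least 1 such pair, 5 of 7 genes, against 15.06% of the 32851 promoters of the table and 16.97% of its 27025 genes. *Dnajb1* and *Hspb7* held neither. A run of 3 units, which overlaps the pairs, was found in 1 member, *Hsph1*, and in 0.6% of all promoters. The letters TATAAA were found in 1 member, *Hspb6*, 29 bases before its start, and in 13.62% of all promoters. These are matches of letters in a window, and the binding of heat shock factor was not measured. The following sequences are shown because they hold the matched pairs and include the near-identical *Hspa1* promoters, with the matched pairs in capitals. *Hspa1a* lies at chr17:34972107-34972406, *Hspa1b* at chr17:34959189-34959488 and *Hsph1* at chr5:149636266-149636565, all on the minus strand, and *Hspb1* at chr5:135887669-135887968 on the plus strand, in GRCm38.p6.
Hspa1a: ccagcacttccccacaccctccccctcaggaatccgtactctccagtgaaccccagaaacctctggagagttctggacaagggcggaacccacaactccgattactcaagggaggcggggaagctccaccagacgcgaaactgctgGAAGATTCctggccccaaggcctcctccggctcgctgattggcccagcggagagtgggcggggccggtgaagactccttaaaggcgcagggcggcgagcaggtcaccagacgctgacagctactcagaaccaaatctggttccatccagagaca
Hspa1b: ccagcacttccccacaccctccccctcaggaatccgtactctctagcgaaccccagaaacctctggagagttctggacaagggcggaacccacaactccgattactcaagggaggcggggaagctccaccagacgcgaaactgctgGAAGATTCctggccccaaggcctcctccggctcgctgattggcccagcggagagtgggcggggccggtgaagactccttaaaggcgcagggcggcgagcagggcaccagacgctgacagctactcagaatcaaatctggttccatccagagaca
Hsph1: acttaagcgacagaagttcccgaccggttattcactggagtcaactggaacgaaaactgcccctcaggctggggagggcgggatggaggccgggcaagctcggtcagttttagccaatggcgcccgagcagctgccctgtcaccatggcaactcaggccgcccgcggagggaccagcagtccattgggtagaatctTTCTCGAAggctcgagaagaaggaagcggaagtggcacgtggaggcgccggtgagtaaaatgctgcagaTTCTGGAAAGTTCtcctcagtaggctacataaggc
Hspb1: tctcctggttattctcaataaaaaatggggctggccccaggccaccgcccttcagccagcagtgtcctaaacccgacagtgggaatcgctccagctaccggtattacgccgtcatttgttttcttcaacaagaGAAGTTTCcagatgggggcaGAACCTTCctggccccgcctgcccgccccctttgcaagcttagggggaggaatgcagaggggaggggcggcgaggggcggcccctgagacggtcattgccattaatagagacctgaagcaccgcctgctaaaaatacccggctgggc

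The promoters of *Hspa1a* and *Hspa1b* were identical at 296 of 300 positions, differed at 4, and shared a stretch of 201 bases without a difference. Both held the pair GAAGATTC 104 bases before the start. *Hsph1* held TTCTCGAA 54 bases before this start and the triple run TTCTGGAAAGTTC from 15 bases after it. *Hspb1* held GAAGTTTC and GAACCTTC, 117 and 97 bases before its start. The likeness of the *Hspa1* genes bears on the counts, because the authors removed reads that map to more than one place. In GENCODE M21, 1545 of 2732 windows of 72 bases in the *Hspa1b* transcript, or 56.6%, occurred unchanged in the *Hspa1a* transcript, and 72 bases is the length of the reads. Values at *Hspa1b* are therefore uncertain, and what the *Hspa1a* and *Hspa1b* copies share cannot be told apart.

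The Pol II libraries held between 1987549 and 4953495 reads in rows, and the IgG libraries between 273442 and 813012, as read from the spacing of their values. The second *Trdn-as* KO library stood apart: it held the fewest reads, and 18.6% of its mapped reads fell in rows, against 35.5% to 42.6% in the other Pol II libraries. At the start of *Trdn-as* itself the Pol II values were 530 and 595 in the WT libraries, 140 and 100 in those of *Trdn-as* KO and 503 and 491 in those of *Mettl3* KO, lowest in the libraries labelled with that allele. At the start of *Mettl3* they were 177 and 202 in the WT libraries, 203 and 161 in those of *Trdn-as* KO and 240 and 235 in those of *Mettl3* KO, but the deletion lies inside the gene, so the start row checks nothing. The hearts carried the markers of their tissue: the rows with the most Pol II of 8 cardiomyocyte genes summed to between 19604 and 26599 in the 6 libraries. The sum over 6 fibroblast genes was 668 and 704 in the WT libraries and 1005 and 668 in those of *Trdn-as* KO. The *Mettl3* KO libraries held 1472 and 1485. Of the 6 genes, 4 (*Col1a1*, *Col1a2*, *Col3a1* and *Pdgfra*) were called higher in *Mettl3* KO than in WT. Their log2 fold changes were 1.09 to 1.45 (adjusted p up to 0.0018 in limma). Of 5 smooth muscle and pericyte genes, 1 was called higher, *Pdgfrb*, at 0.78 (adjusted p = 0.016). Of the rows with the most Pol II of all gene symbols, 1.47% were called higher. In whole ventricles, more cells of a type and more Pol II per cell cannot be told apart.

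All 8 genes with rows carried Pol II above the IgG background at the row with the most Pol II, called the leading row here. Values are counts that the authors divided by a size factor per library and rounded, so they have no absolute unit. In 7 of the 8 genes the leading row lay over the annotated start, and *Hsp90aa1* was the exception. With reads scaled to the mapped reads of each library, the mean of the 2 Pol II libraries was between 4.39 and 41.8 times the IgG library of the same genotype over these 8 rows, and on the deposited scale between 2.043 and 15.2 times. The IgG values rest on few reads, such as 163 in WT at *Hspb7* and 9 in *Mettl3* KO at *Hspa1b*. All 6 Pol II libraries lay above all 3 IgG libraries, on the deposited scale, in 13 of the 25 member rows, against 17.7% of all rows. The 2 shares are not of like rows, since the table also holds CTCF peaks and only 27153 of its 101256 rows carry a gene symbol. Of these 13 rows, 6 lay away from the start, in or behind *Hspa8* and *Hspb1* and before *Hsp90aa1*.

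The inducible HSP70 gene *Hspa1b* had its leading row on chromosome 17 from 35177998 to 35179363, reaching from 1149 nt before to 216 nt after the start. Pol II was 560 and 513 in the WT libraries, 573 and 407 in those of *Trdn-as* KO and 601 and 643 in those of *Mettl3* KO, with IgG values of 74, 79 and 41. Both *Mettl3* KO libraries were above both WT libraries, and the *Trdn-as* KO libraries lay on either side of them. The constitutive HSP70 gene *Hspa8*, whose product also strips clathrin from vesicles, had its leading row on chromosome 9 from 40710563 to 40713776. There Pol II was 1219 and 1093 in the WT libraries, 1192 and 1071 in those of *Trdn-as* KO and 1342 and 1346 in those of *Mettl3* KO. The *Mettl3* KO libraries were again above both WT libraries, and the *Trdn-as* KO values overlapped those of WT. *Hsph1* codes for the HSP110 protein that exchanges the nucleotide of HSP70. Its only row, on chromosome 5 from 149559104 to 149560643, held 193 and 213 in the WT libraries, 270 and 220 in those of *Trdn-as* KO and 276 and 286 in those of *Mettl3* KO. Here the libraries of both knockouts were all above both WT libraries.

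The co-chaperone gene *Dnajb1*, whose HSP40 product hands clients to HSP70 and stimulates its ATPase, had its leading row on chromosome 8 from 84334093 to 84335796. Pol II was 554 and 538 in the WT libraries, 659 and 478 in those of *Trdn-as* KO and 683 and 722 in those of *Mettl3* KO. The *Trdn-as* KO libraries surrounded the WT values, and the *Mettl3* KO libraries were above them. *Hsp90ab1*, the constitutive HSP90 gene, had its leading row on chromosome 17 from 45882933 to 45885877. It held 1028 and 964 in the WT libraries, 1084 and 1012 in those of *Trdn-as* KO and 1232 and 1223 in those of *Mettl3* KO. Only the *Mettl3* KO libraries were clear of the WT values.

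*Hsp90aa1*, the inducible HSP90 gene, gave low values in the rows that carry its symbol. The row over the annotated start, on chromosome 12 from 110668995 to 110670300, held 31 and 36 in the WT libraries, 28 and 53 in those of *Trdn-as* KO and 25 and 27 in those of *Mettl3* KO, beside IgG values of 43, 53 and 32 on the same scale. Scaled to mapped reads, Pol II there was 2.88 times IgG in WT, 1.46 times in *Trdn-as* KO and 2.24 times in *Mettl3* KO. The row with more Pol II lay 3704 to 4566 nt before that start and held 82 and 105, 88 and 77, and 90 and 98 in the same order. A stronger row without a gene label lay inside the gene, on chromosome 12 from 110662034 to 110663462, 5700 to 7128 nt after the annotated start, and was chosen after its values were seen. It held 656 and 564 in the WT libraries, 667 and 613 in those of *Trdn-as* KO and 766 and 776 in those of *Mettl3* KO, with IgG at 56, 92 and 74. In GENCODE M21, on GRCm38, the gene has the same length of 12124 nt, and of its 5 coding transcripts 1 starts at the gene's start while the others start 6333 to 6777 nt after it. The label of the table follows the outer start, so most Pol II at this gene was in a row that carries no symbol.

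The small heat shock protein gene *Hspb1* codes for HSP27, which binds actin and intermediate filaments. Its start row, on chromosome 5 from 135916105 to 135917030, held 479 and 403 in the WT libraries, 415 and 421 in those of *Trdn-as* KO and 491 and 544 in those of *Mettl3* KO. *Hspb7* codes for the cardiovascular small heat shock protein that binds filamin C. Its only row, on chromosome 4 from 141146950 to 141159136, was 12187 nt wide. It reached from 1140 nt before to 11046 nt after the start of a gene of 4533 nt. The row therefore sums the start, the whole gene and sequence behind it. It held 2822 and 3140 in the WT libraries, 3559 and 2907 in those of *Trdn-as* KO and 2683 and 2748 in those of *Mettl3* KO. Among the 8 it was the only leading row with both *Mettl3* KO libraries below both WT libraries. The same held for 7.47% of the leading rows of all gene symbols.

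**Figure D1:**
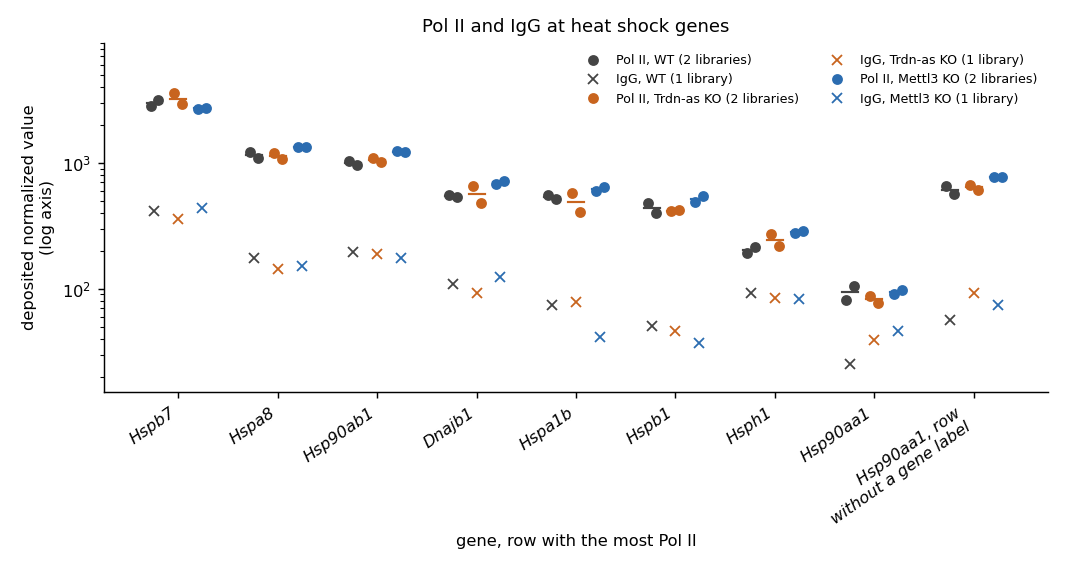
Deposited normalized values on a log axis at the leading Pol II row of 8 heat shock genes and at the unlabelled row inside *Hsp90aa1*; points are single Pol II libraries, short lines the mean of the 2 libraries of a genotype, and crosses the single IgG library. *Hspb7* is highest with 2683 to 3559. The *Mettl3* KO points are above both WT points in 6 of the 8 labelled genes, as in 66.93% of the leading rows of all gene symbols.

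Since rows differ in width, levels are given per length of the row, which still depends on how far the merged peaks extend. The *Hspb7* row runs past its gene and the labelled *Hsp90aa1* row lies before the start. The order below is therefore one of rows and not of like parts of genes. In WT, *Hspb1* had 517.3 and 435.2 Pol II units per kb in its 2 libraries, *Hspa1b* 410 and 375.5, *Hspa8* 379.3 and 340.1, *Hsp90ab1* 349.1 and 327.3, *Dnajb1* 325.1 and 315.7, *Hspb7* 231.6 and 257.7, *Hsph1* 125.3 and 138.3, and *Hsp90aa1* 95 and 121.7 at its labelled leading row. The unlabelled row inside *Hsp90aa1* had 459.1 and 394.7 per kb, with a mean between those of *Hspb1* and *Hspa1b*. From *Hspb1* down to *Dnajb1*, neighbours in this order overlapped or came closer to each other than the libraries of one gene did, and the same held for *Hsph1* and *Hsp90aa1*. The steps from *Dnajb1* to *Hspb7* and from *Hspb7* to *Hsph1* were wider than the distance between the libraries of either gene. IgG in WT ran between 29 and 66.6 per kb over these rows.

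The comparison of *Trdn-as* KO with WT asks whether loss of the antisense RNA changes Pol II away from its own locus. No difference of Pol II at a heat shock gene passed the test. The median log2 fold change of the 8 leading rows was 0.01 on the scale of log2(value + 1), with 4 genes above and 4 below 0. Scaled to mapped reads, 0 of the 8 were above 0 with a median of -0.60, and the median of all rows was then -0.67. On the deposited scale the leading row of all 12343 gene symbols tested had a median of -0.03. The largest difference of a leading row was at *Hsph1*, with a log2 fold change of 0.26 ± 0.19 (SE; n = 2 libraries per group; adjusted p = 0.82 in limma). It was 0.12 without the first and 0.41 without the second *Trdn-as* KO library. The lowest value of a leading row was at *Hsp90aa1*, -0.17 ± 0.26. In a limma model of all 6 Pol II libraries, none of the 20 member rows tested passed an adjusted p of 0.05, where 0.304% of the 52655 rows tested did. Of the member rows, 1 had an unadjusted p under 0.05, beside 7.7% of all rows. It lay behind the 3' end of *Hspb1*, 2407 to 2845 nt from the start, and held 25 and 24 in the WT libraries, 54 and 41 in those of *Trdn-as* KO and 18 and 22 in those of *Mettl3* KO. Both *Trdn-as* KO libraries were above the WT libraries there, with a log2 fold change of 0.91 ± 0.38 and an adjusted p of 0.53. The 95% intervals of the start rows of *Hspa8* and *Hsp90ab1* ran from -0.28 to 0.22 and from -0.18 to 0.33. Without the first *Trdn-as* KO library, which leaves only the one that stands apart, *Hspa1b* had a log2 fold change of -0.40 and an adjusted p of 0.033 in limma, 1 of 19 member rows tested, where 4.3% of all rows passed. Without the second library its log2 fold change was 0.10, and with both it was -0.15 ± 0.16.

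The comparison of *Mettl3* KO with WT asks the same of cardiomyocytes that lack the m6A writer. The leading rows were mostly higher in *Mettl3* KO, by a median log2 fold change of 0.23 over the 8 genes, and 7 of the 8 were above 0. Both *Mettl3* KO libraries exceeded both WT libraries in 6 genes. This was also the common pattern of leading rows: that of all 12343 gene symbols had a median of 0.26, 83.12% were above 0, and 66.93% had both *Mettl3* KO libraries above both WT libraries, whereas over all 52655 rows the median was 0.08. The single values were 0.47 ± 0.19 for *Hsph1*, 0.36 ± 0.15 for *Dnajb1*, 0.30 ± 0.13 for *Hsp90ab1*, 0.23 ± 0.16 for *Hspb1*, 0.22 ± 0.12 for *Hspa8*, 0.21 ± 0.16 for *Hspa1b* and 0.02 ± 0.26 for *Hsp90aa1*. *Hspb7* lay on the other side with -0.13 ± 0.10. Without the second WT library the values were 0.11 for *Hspb1*, 0.14 for *Hspa8* and -0.06 for *Hspb7*. With all rows of a gene summed, 6 of the 8 genes were above 0 and their median was 0.12, beside 0.25 over all genes. At the unlabelled row of *Hsp90aa1* the log2 fold change was 0.34 ± 0.15, and with it in place of the labelled row the median of the 8 genes was 0.27.

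None of the 20 member rows passed the test in *Mettl3* KO against WT, where 1.19% of all rows did. The smallest adjusted p of a leading row was 0.22, at *Hsph1*, and 3 leading rows had an unadjusted p under 0.05, as 25.53% of the leading rows of all gene symbols did. The outcome depended on the *Trdn-as* KO libraries in the model. In a model of the 4 libraries of *Mettl3* KO and WT alone, the start rows of *Hsp90ab1* (adjusted p = 0.0082 in limma), *Dnajb1* (0.0099), *Hsph1* (0.023) and *Hspa8* (0.029) passed, 4 of 18 member rows tested, where 10.3% of all rows and 27.2% of the leading rows of all gene symbols passed. Leaving out the first or the second *Trdn-as* KO library from the full model also gave 4, where 9.71% and 9.97% of all rows passed. Scaled to mapped reads, 6 of the 8 leading rows were above 0 with a median of 0.09, and the median of all rows was then -0.06. With size factors from the Pol II libraries alone 6 of 8 were above 0 with a median of 0.15, and *Hsp90aa1* turned to -0.06. The fibroblast markers and *Pdgfrb*, given above, moved with this comparison, and their part in it was not tested.

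**Figure D2:**
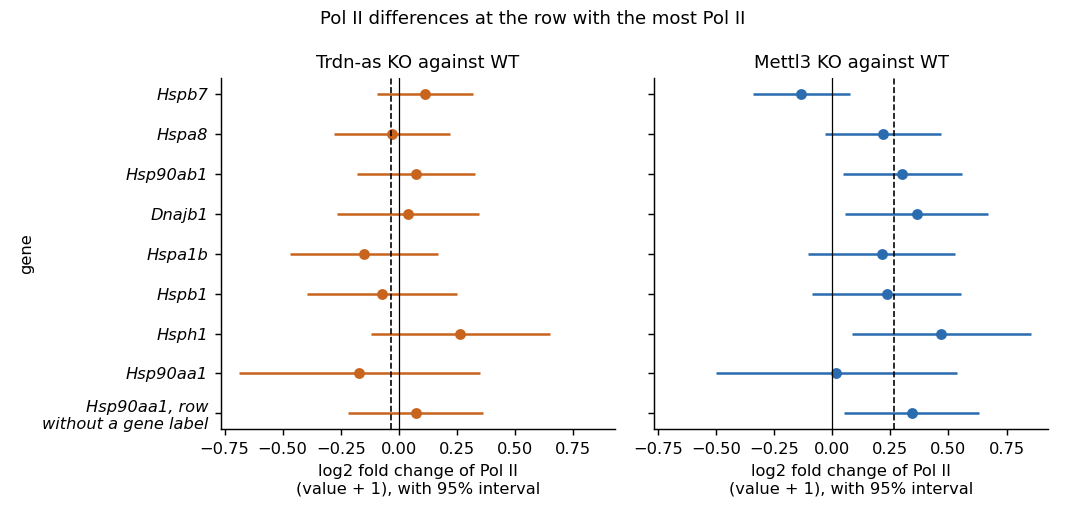
Log2 fold change of Pol II at the leading rows with the 95% interval from the model of 6 libraries, *Trdn-as* KO against WT on the left and *Mettl3* KO against WT on the right; the dashed line is the median over the leading rows of all 12343 gene symbols. On the right 7 of the 8 labelled genes are above 0, from 0.02 at *Hsp90aa1* to 0.47 at *Hsph1* around the dashed line at 0.26, and *Hspb7* is at -0.13.

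Between the knockouts, the leading rows mostly held less Pol II with *Trdn-as* KO than with *Mettl3* KO. Of the 8, 1 was above 0 and the median log2 fold change was -0.24, beside -0.30 and 14.92% above 0 for the leading rows of all gene symbols. Of the 8 members, 4 had an unadjusted p under 0.05, as 31.39% of the leading rows of all gene symbols did, and none passed. In the same comparison 5 of the 6 fibroblast genes and 1 of 5 smooth muscle and pericyte genes, *Pdgfrb*, were called lower in *Trdn-as* KO. Of the 8 cardiomyocyte genes only *Myh6* was called lower, and 3 were above 0. *Myh6* was also called lower in *Trdn-as* KO than in WT, at -0.35 ± 0.08 (adjusted p = 0.029 in limma). Without the second *Trdn-as* KO library the median of all rows moved from -0.16 to -0.03. The part of these genes and of this library in the result was not tested. Rows other than the leading ones are given singly, since a low row could enter the test through the groups in which it was high. *Hspa8* had the most such rows. The row 2477 to 3199 nt from its start, inside the gene on chromosome 9 from 40714757 to 40715479, held 53 and 44 in the WT libraries, 55 and 51 in those of *Trdn-as* KO and 30 and 13 in those of *Mettl3* KO. Both *Mettl3* KO libraries were below all other libraries. The difference from *Trdn-as* KO passed the test, with *Trdn-as* KO higher by a log2 fold change of 1.37 ± 0.36 (adjusted p = 0.033 in limma), and that from WT did not, at -1.24 ± 0.36 (adjusted p = 0.064). This was the only call among the 20 member rows in *Trdn-as* KO against *Mettl3* KO, where 1.5% of all rows passed, and it was lost in 10 of the 14 other settings that kept the row. Its values are those of few reads, 25 and 8 in the *Mettl3* KO libraries. IgG there was 23 in WT, 20 in *Trdn-as* KO and 14 in *Mettl3* KO, so 1 of the *Mettl3* KO libraries lay below its own IgG on the deposited scale. Scaled to mapped reads, Pol II was 4.155 times IgG in *Mettl3* KO, with 3 reads behind that IgG value.

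The last row of *Hspa8*, 4090 to 7591 nt from the start, was the second strongest of the gene. In GENCODE M21 the longest coding transcript ends 4216 nt from the start while the annotated gene spans 9104 nt, so the row begins just before the end of that transcript and runs beyond it. Pol II there was 396 and 432 in the WT libraries, 559 and 413 in those of *Trdn-as* KO and 327 and 359 in those of *Mettl3* KO. Again both *Mettl3* KO libraries were the lowest, at a log2 fold change of -0.27 ± 0.17 against WT with an adjusted p of 0.44. The row 3655 to 4011 nt from the start held 23 and 20, 37 and 33, and 24 and 19, and was highest in *Trdn-as* KO. *Hspb1*, a gene of 1645 nt, had a second strong row, 415 to 1551 nt from the start, with 181 and 195 in the WT libraries, 189 and 153 in those of *Trdn-as* KO and 169 and 162 in those of *Mettl3* KO, and the *Mettl3* KO libraries lay below WT. In the row 1985 to 2332 nt from the start it held 35 and 26, 39 and 24, and 19 and 29, and these groups overlapped.

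The remaining rows were low. In *Hsp90ab1* the 3 rows after the start row held between 0 and 15 in every Pol II library, in *Hspa1b* the 4 further rows between 0 and 41, and in *Dnajb1* the second row between 1 and 10. *Hspa8* had a row before its start with 0 to 6 and another after it with 6 to 21. Of the 25 member rows, 5 did not reach a value of 10 in at least 2 Pol II libraries and were not tested.

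The ratio of start to downstream Pol II over the rows of a gene does not depend on the scaling of the libraries. It was examined after the values of *Hspa8* had been seen, as the value of the row over the start divided by the sum of the rows wholly downstream of it. Only rows labelled with the gene entered it, and they could lie beyond the gene's end, as 2 rows of *Hspb1* did. At *Hspa8* it was 2.54 and 2.13 in the WT libraries, 1.77 and 2.12 in those of *Trdn-as* KO and 3.47 and 3.39 in those of *Mettl3* KO, and at *Hspb1* 1.99 and 1.65, 1.47 and 1.93, and 2.38 and 2.55. In both genes the *Mettl3* KO libraries were the highest. At *Hsp90ab1* the ratio was 39.5 and 33.2 in the WT libraries, 45.2 and 72.3 in those of *Trdn-as* KO and 88 and 122.3 in those of *Mettl3* KO, and at *Hspa1b* 29.5 and 18.3, 26.0 and 22.6, and 40.1 and 40.2. The downstream sums of these last 2 genes were at most 29. The log2 change of the ratio in *Mettl3* KO against WT was 0.56 ± 0.18 at *Hspa8* and 0.45 ± 0.21 at *Hspb1* (adjusted p = 0.15 and 0.30 in limma over 3130 genes with both kinds of row). It was 1.45 ± 0.47 at *Hsp90ab1* and 0.76 ± 0.46 at *Hspa1b*. None of the 4 passed, where 0.224% of the 3130 genes did, and the median over all of these genes was 0.36, with 74.2% above 0. In *Trdn-as* KO against WT none of the 4 passed either, where 0.0639% of genes did, and the median of all genes was 0.06. With 2 libraries per group an exact permutation test of a single ratio cannot go below p = 0.33.

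**Figure D3:**
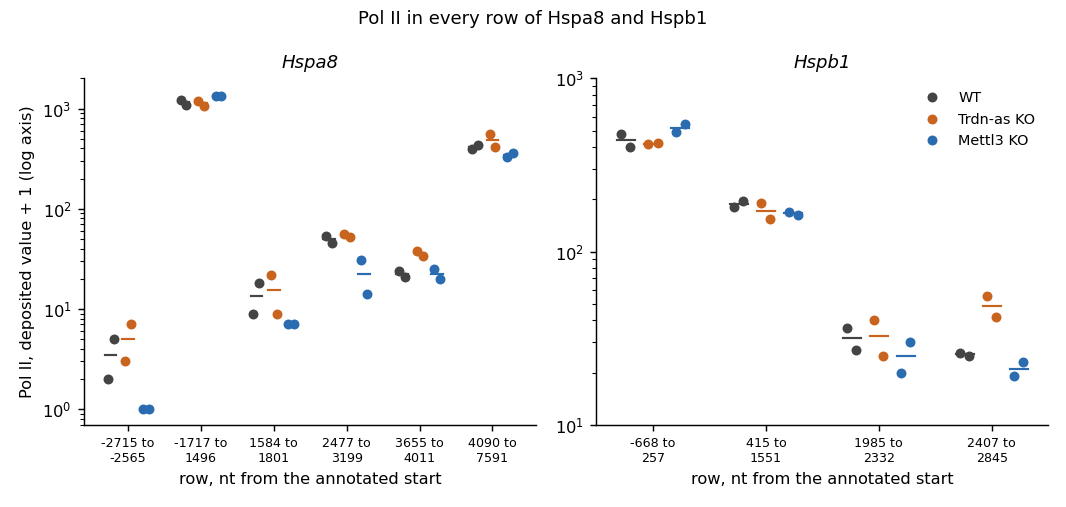
Pol II value + 1 on a log axis in every row of *Hspa8* and *Hspb1*, ordered by position in nt from the annotated start; points are single libraries and short lines the mean of 2. In *Mettl3* KO the points are above WT at the *Hspa8* start row (1342 and 1346 against 1219 and 1093) and below it in the last row (327 and 359 against 396 and 432).

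The genes without a row of their own could be approached only through their neighbours, whose rows were chosen after their values were seen. *Hspa1a* starts 547 nt from *Hspa1l* in GENCODE M21, in the opposite direction. The row labelled *Hspa1l*, on chromosome 17 from 35190909 to 35192074, reached 770 nt before the start of *Hspa1l*, to the side of *Hspa1a*. It held 300 and 287 in the WT libraries, 290 and 252 in those of *Trdn-as* KO and 347 and 323 in those of *Mettl3* KO, with a log2 fold change of 0.19 ± 0.18 in *Mettl3* KO. Its direction was that of *Hspa1b*, and which gene its reads come from cannot be told apart. *Hspb6*, whose product HSP20 is a substrate of protein kinase A in heart muscle, lies between *Proser3* and *Lin37* in GENCODE M21 and overlaps both. The row labelled *Proser3*, on chromosome 7 from 30250689 to 30255537, covered the 3142 nt between these neighbours. It held 1117 and 1220 in the WT libraries, 1231 and 1016 in those of *Trdn-as* KO and 1157 and 1175 in those of *Mettl3* KO, and its groups overlapped, with differences from WT of -0.06 ± 0.13 and 0.00 ± 0.13 on the log2 scale.

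CTCF at most start rows had values near those of IgG on the deposited scale, the only scale on which CTCF could be set beside IgG. In the 7 start rows other than that of *Hsp90aa1*, the mean CTCF value was 0.71 to 1.42 times the IgG value of the same genotype. At the start of *Hspa8*, for example, CTCF was 164 and 154 in the WT libraries, 141 and 162 in those of *Trdn-as* KO and 156 and 145 in those of *Mettl3* KO, and IgG was 176, 144 and 152. One normalization covered all libraries, so a ratio near 1 on this scale does not show that CTCF was at the background. In 3 of the 25 member rows all 6 CTCF libraries were above all 3 IgG libraries, against 27% of all rows, with or without a gene symbol. The first was the row over the annotated start of *Hsp90aa1*, where CTCF was 130 and 112 in the WT libraries, 119 and 139 in those of *Trdn-as* KO and 115 and 120 in those of *Mettl3* KO, 2.43 to 3.67 times the IgG. This is the row with little Pol II. The second was the last row of *Hspa8*, with 214 and 202, 215 and 225, and 195 and 187 against IgG values of 155, 105 and 129. The third was a row at the end of *Hspa1b*, 2451 to 2997 nt from the start, with 26 and 28, 21 and 33, and 18 and 21 against 5, 7 and 14.

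No difference of CTCF between genotypes passed the test at a heat shock gene. Of 14 member rows tested, none passed in *Trdn-as* KO against WT, in *Mettl3* KO against WT or in *Trdn-as* KO against *Mettl3* KO, where 0.587%, 0.185% and 1.37% of 60649 rows did, in limma. In each of these 3 comparisons 1 member row had an unadjusted p under 0.05, beside 10.19%, 15.67% and 18.78% of all rows, namely the start row of *Hspb1*, the row at the end of *Hspa1b* and the last row of *Hspa8*. The largest difference of the 14 rows was at the row at the end of *Hspa1b*, with a log2 fold change of -0.45 ± 0.20 in *Mettl3* KO against WT (adjusted p = 0.29). At the *Hsp90aa1* start row the differences were 0.09 ± 0.10 in *Trdn-as* KO and -0.04 ± 0.10 in *Mettl3* KO.

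**Figure D4:**
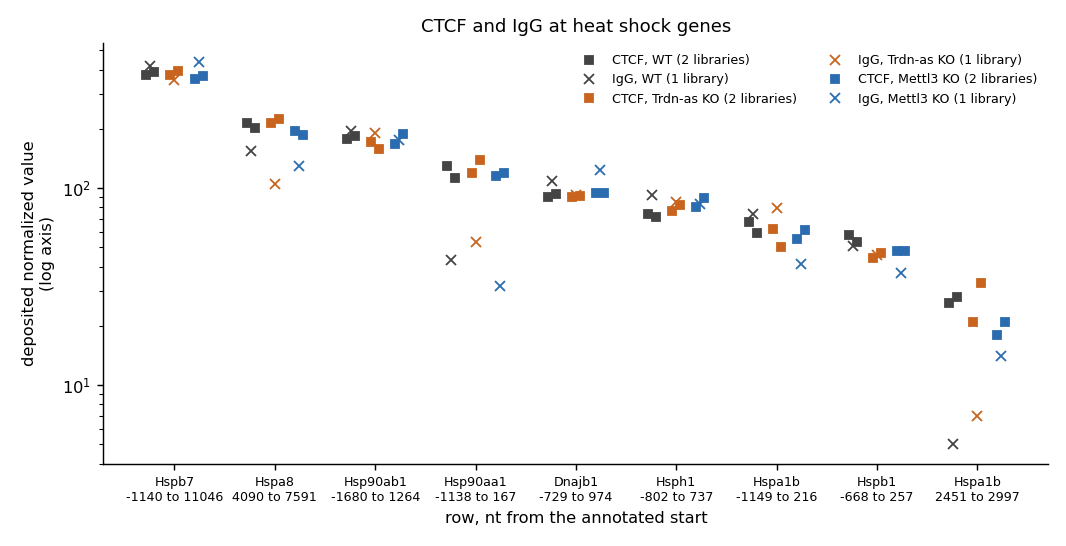
CTCF (squares, 2 libraries per genotype) and IgG (crosses, 1 per genotype) as deposited values on a log axis at the row with the most CTCF of each heat shock gene and at the row at the end of *Hspa1b*. CTCF is clear of IgG at *Hsp90aa1* (112 to 139 against 32 to 53), the last row of *Hspa8* and the row at the end of *Hspa1b*, and close to it elsewhere.

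At other genes of the chaperone network Pol II was mostly higher in *Mettl3* KO than in WT, as at most leading rows. The list held 81 genes, among them heat shock factors, HSP40, BAG and chaperonin genes, 67 had a row and 65 were tested at the leading row. In *Mettl3* KO against WT 62 of 65 were above 0, with a median log2 fold change of 0.27, again near the 0.26 of all gene symbols. Of the 65, 2 rose and none fell, where 1.47% of the leading rows of all gene symbols and 0.712% of all rows were called higher. *Dnaja3*, which codes for a mitochondrial HSP40 protein, was one of them. It held 214 and 257 in the WT libraries, 331 and 293 in those of *Trdn-as* KO and 372 and 371 in those of *Mettl3* KO, a log2 fold change of 0.66 ± 0.18 (adjusted p = 0.047 in limma). The *Trdn-as* KO libraries of *Dnaja3* were also above WT. Without either WT or either *Mettl3* KO library none of the 65 passed, and in the model of *Mettl3* KO and WT alone 27 did, beside the 27.2% of the leading rows of all gene symbols and 10.3% of all rows that passed in it.

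In *Trdn-as* KO against WT none of the 65 genes passed, 2 had an unadjusted p under 0.05, 28 were above 0 and the median was -0.02. Of the leading rows of all gene symbols, 4.86% had an unadjusted p under 0.05 and 43.02% were above 0. The largest differences were those of *Dnaja3*, 0.41 ± 0.18, and of the co-chaperone gene *Bag2*, 0.31 ± 0.21. The smallest were those of *Hspd1*, which codes for the mitochondrial chaperonin HSP60, -1.74 ± 0.67, and of the cytosolic chaperonin gene *Cct2*, -0.36 ± 0.20. The *Hspd1* row held 19 and 19 in the WT libraries and 11 and 2 in those of *Trdn-as* KO, close to IgG values of 8 and 7. Its adjusted p was 0.46 in limma. It lay on chromosome 1 from 55131146 to 55131465. A stronger row from 55126188 to 55128099, labelled *Hspe1*, held 576 and 588 in the WT libraries and 607 and 452 in those of *Trdn-as* KO. Its log2 fold change was -0.15 ± 0.15, and whether reads there belong to *Hspd1* was not tested.

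**Figure D5:**
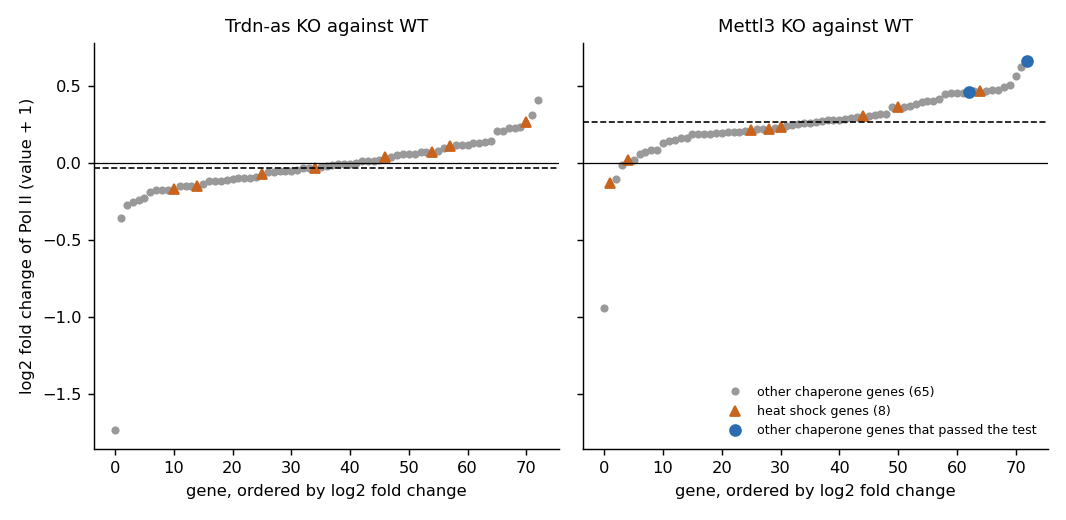
Log2 fold changes of Pol II at the leading row of 65 other chaperone genes (circles) and 8 heat shock genes (triangles), ordered by size within each comparison; the dashed line is the median of all 12343 gene symbols. In *Mettl3* KO against WT 62 of the 65 circles and 7 of the 8 triangles are above 0, and the 2 large circles, *Dnaja3* the higher of them, passed the test.

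The 5 genes whose leading row was most like the mean of the 8 heat shock genes over the 6 Pol II libraries were *Ube2d2a*, *Ccm2*, *Usp32*, *Atp7a* and *Snupn*, with Pearson correlations of 0.9972 to 0.9964 on the log2 scale. All 6 points share the same libraries and scaling, and 35.03% of the 9969 rows compared had a correlation over 0.9, so the shape is that of many leading rows. The mean profile of the heat shock genes ran from -0.19 to 0.17 around its centre.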

How the data were processed

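Per the labels, ChIP-seq used antibodies against Pol II (Polr2a) and CTCF, and IgG, on ventricles, sequenced as 72 bp single-end reads. The authors trimmed reads with Trimmomatic 0.39, aligned them to mm39 with STAR 2.7.11b, discarded reads that were duplicates (Picard 3.1.1), spliced, mapped to several places or came from ribosomal or mitochondrial sequence, called MACS peaks, merged them over samples and counted reads with featureCounts. The signal per peak, as the authors deposited it for 15 libraries, is the count divided by a DESeq2 1.36.0 size factor and rounded. The input libraries were not analysed here.

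Signals were tested as log2(value + 1) with limma 3.58.1 (R 4.3.3): rows with at least 10 in 2 or more of 6 libraries, 3 genotypes in the model, a variance trend, and Benjamini-Hochberg adjustment over all rows at 0.05. The fit was tested on simulated data. The leading row was the promoter row of a gene with the highest mean Pol II. Other chaperone genes were named when they passed, or as the 2 highest and 2 lowest (one that passed is not reported here), and like genes as the 5 with the highest correlation. Reads behind values came from the spacing of each library's values, and mapped totals from the study. Members and lists were chosen with earlier results of these data known. Promoters are from RefSeq (GRCm38.p6), transcripts from GENCODE M21. Counts of reads here cover counting error only.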

Additional observations from a re-analysis of the deposited data

How the results depend on the processing

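With 2 libraries per group, the calls at heat shock genes depended on single libraries and on which genotypes shared the model, and the cause was not tested. In *Mettl3* KO against WT, where no member row passed, 2 passed with size factors within the antibody (*Hspb7* and the inner row of *Hspa8*), 4 with only these genotypes in the model and 1 with a pseudocount of 5, and leaving out a library gave 0 to 4. Of all rows, 4.49%, 10.3% and 1.87% passed in those settings, and up to 9.97% with a library left out. In *Trdn-as* KO against *Mettl3* KO the single call became 0 with mapped reads as library size, without a filter, with only these genotypes, without a variance trend, with values summed per gene and at an adjusted p of 0.01. It became 4 with size factors within the antibody, where 3.07% of all rows passed, and 0 to 4 when a library was left out, the 4 without the first *Trdn-as* KO library, where 19.3% of all rows passed. In *Trdn-as* KO against WT, leaving out a library gave 0 to 1 member rows, the 1 where 4.3% of all rows passed. Of the other chaperone genes, the number called changed in both comparisons with WT when a library was left out. For *Mettl3* KO against WT, in place of 2, the count was 0 with mapped reads, without a filter, without a trend or at 0.01. It was 1 with a pseudocount of 0.5 or summed values, 5 with size factors within the antibody and 27 with only these genotypes. In the last 2 settings 1022 of 12242 and 3304 of 12125 leading rows of all gene symbols passed.

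Replicate numbers did not pair the Pol II libraries: the correlations of the replicate differences were -0.04, -0.01 and 0.01. With the replicate block, 1 member row (the inner row of *Hspa8*) and 1 other chaperone gene passed in *Mettl3* KO against WT. In that fit 1.44% of all rows and 226 of the 12343 leading rows of all gene symbols passed. The block moved no other count of members or chaperone genes by over 1.5 times. Over all rows it moved the CTCF calls from 356 to 236 in *Trdn-as* KO against WT, from 112 to 2 in *Mettl3* KO against WT and from 828 to 376 between the knockouts. For CTCF in *Trdn-as* KO and WT the correlation was -0.42, and crossed pairs gave 0 called rows in all, as did the numbered pairs.

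Signs turned at small values. For Pol II, *Hspa8* in *Trdn-as* KO against WT became 0.022 with size factors within the antibody and 0.0545 summed per gene, and *Hsp90aa1* in *Mettl3* KO against WT became -0.0588 and -0.0737. For CTCF in *Trdn-as* KO against WT, *Dnajb1* became 0.0007 summed per gene and *Hspb7* -0.0112 with size factors within the antibody. With those factors CTCF in *Mettl3* KO against WT became 0.0199 at *Hsp90aa1*, 0.0398 at *Hsp90ab1* and 0.0027 at *Hspb7*. When libraries were left out, Pol II in *Trdn-as* KO against WT ranged from -0.40 to 0.10 at *Hspa1b*, -0.11 to 0.048 at *Hspa8*, -0.35 to 0.0055 at *Hsp90aa1*, -0.19 to 0.27 at *Dnajb1*, -0.20 to 0.053 at *Hspb1* and -0.034 to 0.26 at *Hspb7*, and in *Mettl3* KO against WT from -0.16 to 0.19 at *Hsp90aa1*. CTCF ranged in *Trdn-as* KO from -0.039 to 0.0079 at *Dnajb1*, -0.0199 to 0.20 at *Hsp90aa1* and -0.017 to 0.0504 at *Hspb7*, and in *Mettl3* KO from -0.15 to 0.068 at *Hsp90aa1* and -0.11 to 0.0702 at *Hsp90ab1*. In *Trdn-as* KO against WT, *Hsph1* ranged from 0.12 to 0.41. In *Mettl3* KO against WT, *Hspb1* ranged from 0.11 to 0.36 and *Hspb7* from -0.21 to -0.06, and summing per gene gave 0.0886 at *Hspb1* and 0.0694 at *Hspa8*. Where a single library was left in a group, it was assumed to vary like the other groups.

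Scaling to mapped reads moved the median of all rows to -0.67 in *Trdn-as* KO against WT, to -0.06 in *Mettl3* KO against WT and to -0.62 between the knockouts, from -0.07, 0.08 and -0.16, and its calls were made relative to that shift. It was not run for CTCF, whose values gave no reliable value of 1 read. Low rows limit the depth: a Pol II value of 10 stands for 5 to 11 reads.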

Other observations

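Grouped by symbol, most families of the chaperone list had overlapping ranges of Pol II fold changes at their leading rows in *Mettl3* KO against WT. The exception was the heat shock factors, which lay above all HSP70, HSP110 and BAG genes, none of which exceeded 0.40. The heat shock factor and immunophilin genes lay above the median of 0.26 of all gene symbols, and the other families lay on both sides of it. The families are described without a test. The genes of the heat shock factors themselves, *Hsf1*, *Hsf2* and *Hsf4*, had log2 fold changes of 0.42 to 0.50, and none passed, the smallest adjusted p in limma being 0.19. The 4 immunophilin genes, whose products bind HSP90, ranged from 0.36 to 0.62, with *Fkbp5* highest at an adjusted p of 0.059. The 14 HSP40 genes had a median of 0.20 and spread from -0.10 to 0.66, with *Dnaja3* at the upper end. The 8 HSP70 and HSP110 genes had a median of 0.30, the 5 other small heat shock protein genes 0.27, the 4 subunits of the cytosolic chaperonin 0.23 and the 5 BAG genes 0.19.

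In *Trdn-as* KO against WT the family medians lay between -0.13 for the chaperonin subunits, of which all 4 were below 0, and 0.13 for the small heat shock proteins, of which 4 of 5 were above 0. No gene of these families passed in that comparison, the smallest adjusted p being 0.57 at *Dnaja3*.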
